A study of Mus musculus with 8 samples.

Results

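A set of 9 regulators of germ cells and oocytes was followed in mouse 2-cell embryos with a knockout of Dux and in wild-type embryos: Stra8, Nanos3, Prdm14, Dazl, Kit, Nobox, Lhx8, Figla and Sohlh1. They were chosen by name for their known roles, and the choice drew on their measured levels in the Dux KO and WT pools, so those levels are given as a description without a test. Of the 9, 7 have a row in the table of 13101 genes. Figla and Sohlh1 matched no row by symbol or identifier and were not analysed here.

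RNA was measured in 4 Dux KO pools and 4 WT pools, each of 12 to 18 embryos at the 2-cell stage collected after timed matings. Both groups are on the C57BL/6 background, and the groups differ in the labels only by the knockout of Dux, a double homeobox gene of the early embryo. Polyadenylated RNA was amplified to cDNA with a low-input kit before Nextera XT libraries were made. Whether the 4 pools that share a genotype had different parents is not labelled, and a p-value below reflects pool-to-pool spread, which may be technical. Dux itself was not analysed here, since 0 rows carry its symbol.

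Germ cells pass through an ordered programme. Primordial germ cells are set aside by transcriptional regulators such as PRDM14 and kept alive by NANOS3 and by signalling through the receptor KIT. DAZL, an RNA-binding protein, then makes them competent for sexual differentiation, retinoic acid induces STRA8 at entry into meiosis, and FIGLA, NOBOX, SOHLH1 and LHX8 drive the gene expression of the oocyte. A 2-cell embryo carries transcripts inherited from the oocyte beside transcripts made after activation of its own genome, and polyadenylated RNA of both kinds enters these libraries.

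Values are FPKM, fragments scaled by transcript length and library size, as the authors deposited them, and whole reads were recovered from their steps. The pools held 13010944 to 14548526 gene reads in Dux KO and 12343369 to 13814719 in WT. All 24 of 24 markers of oocytes and 2-cell embryos had a row, with summed FPKM of 6050 to 11252 in Dux KO and 7107 to 8566 in WT. Of markers of other cells that a pool could carry, 7 of 18 for cumulus and granulosa cells had a row. Their summed FPKM was 31.4, 100.04, 28.4 and 56.4 in Dux KO replicates 1 to 4, and 30.7 to 34.5 in WT. Dux KO replicates 2 and 4 stood above WT in Hsd3b1, which had 2.01, 50.5, 1.75 and 11.6 FPKM in Dux KO replicates 1 to 4 and 0.134 to 4.52 in WT. They also did in Inha, which had 1.21, 9.18, 0.869 and 16.01 FPKM in Dux KO replicates 1 to 4 and 0.0563 to 2.98 in WT. In Cyp19a1 every Dux KO pool stood above every WT pool, at 0.701 to 1.45 FPKM in Dux KO and 0.220 to 0.573 in WT. Amhr2 averaged lower in Dux KO, at 19.5 FPKM against 22.9 in WT, as did Tnfaip6, at 2.74 against 3.27, with groups that overlapped. Oviduct markers (4 of 10) summed to 101 to 142 FPKM in Dux KO and 133 to 151 in WT. Most of this was Epcam, at 65.2 to 113 FPKM in Dux KO and 116 to 143 in WT. The others averaged higher in Dux KO, with groups that overlapped. Ovgp1 averaged 10.5 FPKM in Dux KO and 4.96 in WT, Krt18 6.83 and 2.84, and Cdh1 5.16 and 2.80. The 1 blood marker with a row of 10 was Cd68, at 1.77 to 4.88 FPKM in Dux KO and 1.33 to 5.61 in WT. The 1 sperm marker of 10 was Odf2, at 4.86 to 10.7 FPKM in Dux KO and 3.73 to 4.56 in WT.

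The promoters of Stra8, Dazl and Nanos3 are shown because these genes had the clearest separations between the groups among the members with a promoter entry. Each runs from 250 bases before to 50 after the transcript start (RefSeq, GRCm38.p6), 5′ to 3′ on the gene's strand. Of the 9 genes, 8 had an entry, Prdm14 being the exception. Capitals mark matches to any of 4 motifs, searched on both strands: the E-box CANNTG, the nuclear receptor half-site AGGTCA bound by receptors such as those for retinoic acid, the NOBOX element TAATTG, and CNCCTCAG, known from promoters bound by STRA8 with MEIOSIN.
Stra8 (chr6:34920698-34920997, plus strand): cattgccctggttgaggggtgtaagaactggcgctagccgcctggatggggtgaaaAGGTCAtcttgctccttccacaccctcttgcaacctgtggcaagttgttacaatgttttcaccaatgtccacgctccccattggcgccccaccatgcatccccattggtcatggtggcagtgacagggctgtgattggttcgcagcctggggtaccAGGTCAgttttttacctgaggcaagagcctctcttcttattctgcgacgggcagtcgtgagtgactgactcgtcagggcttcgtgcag
Dazl (chr17:50293571-50293870, minus strand): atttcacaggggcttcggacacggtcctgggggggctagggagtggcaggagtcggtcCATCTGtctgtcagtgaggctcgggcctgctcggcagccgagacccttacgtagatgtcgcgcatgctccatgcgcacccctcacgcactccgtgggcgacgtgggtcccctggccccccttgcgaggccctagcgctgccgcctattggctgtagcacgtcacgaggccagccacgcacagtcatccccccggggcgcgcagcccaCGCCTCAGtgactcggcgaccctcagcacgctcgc
Nanos3 (chr8:84176503-84176802, minus strand): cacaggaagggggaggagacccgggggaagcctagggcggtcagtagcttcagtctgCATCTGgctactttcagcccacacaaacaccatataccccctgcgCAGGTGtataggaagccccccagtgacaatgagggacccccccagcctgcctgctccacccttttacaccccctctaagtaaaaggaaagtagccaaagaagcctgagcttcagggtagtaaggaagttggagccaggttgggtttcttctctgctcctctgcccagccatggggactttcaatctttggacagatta

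The Stra8 window held AGGTCA at 194 and at 38 bases before the start and no E-box. The Dazl window held the E-box CATCTG at 192 bases before the start and the STRA8-MEIOSIN motif CGCCTCAG at 16 bases after it. The Nanos3 window held the E-boxes CATCTG and CAGGTG at 193 and 148 bases before the start. Among all 32851 windows of the same length, 72.3% held an E-box, 16.3% AGGTCA, 8.0% TAATTG and 7.94% CNCCTCAG. The Dazl window is rich in CpG, with 28 CpG dinucleotides and 68.7% GC, against 10 and 55.7% for Stra8, 3 and 55.3% for Nanos3, and medians of 7 and 52.7% over all windows. A match is a run of letters and was not tested for binding. Among the other members the Nobox window held 2 E-boxes and AGGTCA on the minus strand, each of the 2 Kit windows 1 E-box, and the Lhx8 window none of the 4 motifs.

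Stra8, the retinoic-acid-induced gene required for entry into meiosis, had the largest ratio between the groups of the 7 measured genes. The gene lies on chromosome 6 at 34920163 to 34939344. It had 6.46, 6.28, 10.6 and 10.99 FPKM in Dux KO replicates 1 to 4, and 0.361, 0.599, 1.57 and 0.885 FPKM in WT replicates 1 to 4. Every Dux KO pool lay above every WT pool, and the lowest Dux KO pool was well above the highest WT pool. The means were 8.58 ± 2.56 FPKM in Dux KO and 0.852 ± 0.521 FPKM in WT (SD, n = 4 each), a ratio of 10.1. Behind these values stood 169 to 283 reads in Dux KO pools and 8 to 34 reads in WT pools, so the WT level rests on few reads. On the log2(FPKM + 1) scale the difference was 2.37, which understates the change of a low gene. With a pseudocount of 0.1 it was 3.30, and the authors' deposited table gives a log2 fold change of 3.34.

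Dazl, the RNA-binding protein that binds and promotes translation of germ cell mRNAs, was the most abundant member in both groups. It lies on chromosome 17 at 50279395 to 50293636. It had 89.5, 118.9, 96.2 and 79.7 FPKM in Dux KO replicates 1 to 4, and 37.1, 33.6, 33.2 and 26.1 FPKM in WT replicates 1 to 4. The groups did not overlap, and pools of a group stood close together. The means were 96.1 ± 16.7 FPKM in Dux KO and 32.5 ± 4.61 FPKM in WT (SD, n = 4 each), a ratio of 2.95 and a log2 difference of 1.53. Dazl is also the best counted member, with 4243 to 7144 reads in Dux KO and 1314 to 1784 reads in WT.

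Nanos3, an RNA-binding protein that protects primordial germ cells from cell death, went the other way. It lies on chromosome 8 at 84173731 to 84185217. It had 4.77, 2.89, 7.45 and 5.67 FPKM in Dux KO replicates 1 to 4, and 25.3, 21.6, 8.98 and 22.7 FPKM in WT replicates 1 to 4. All Dux KO pools lay below all WT pools, but WT replicate 3 stood close to the highest Dux KO pool, which was replicate 3. The means were 5.19 ± 1.90 FPKM in Dux KO and 19.6 ± 7.26 FPKM in WT (SD, n = 4 each), a level 3.78-fold higher in WT and a log2 difference of -1.70. Reads numbered 42 to 102 in Dux KO and 100 to 287 in WT. The annotated span of Nanos3 also holds the microRNA genes Mir181c and Mir181d on the same strand, neither of which has a row.

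Prdm14, the PR-domain regulator of primordial germ cell specification and of naive pluripotency, was also lower in Dux KO. It lies on chromosome 1 at 13113457 to 13127163. It had 4.30, 1.93, 5.37 and 1.18 FPKM in Dux KO replicates 1 to 4, and 12.5, 21.2, 8.26 and 14.4 FPKM in WT replicates 1 to 4. The groups did not overlap, although the pools of each group spread widely. The means were 3.19 ± 1.97 FPKM in Dux KO and 14.1 ± 5.37 FPKM in WT (SD, n = 4 each), a level 4.41-fold higher in WT and a log2 difference of -1.91. Reads numbered 42 to 204 in Dux KO and 255 to 754 in WT. In these pools fewer embryos with a transcript and less RNA per embryo cannot be told apart, for Nanos3 and Prdm14 as for every gene here.

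**Figure D1:**
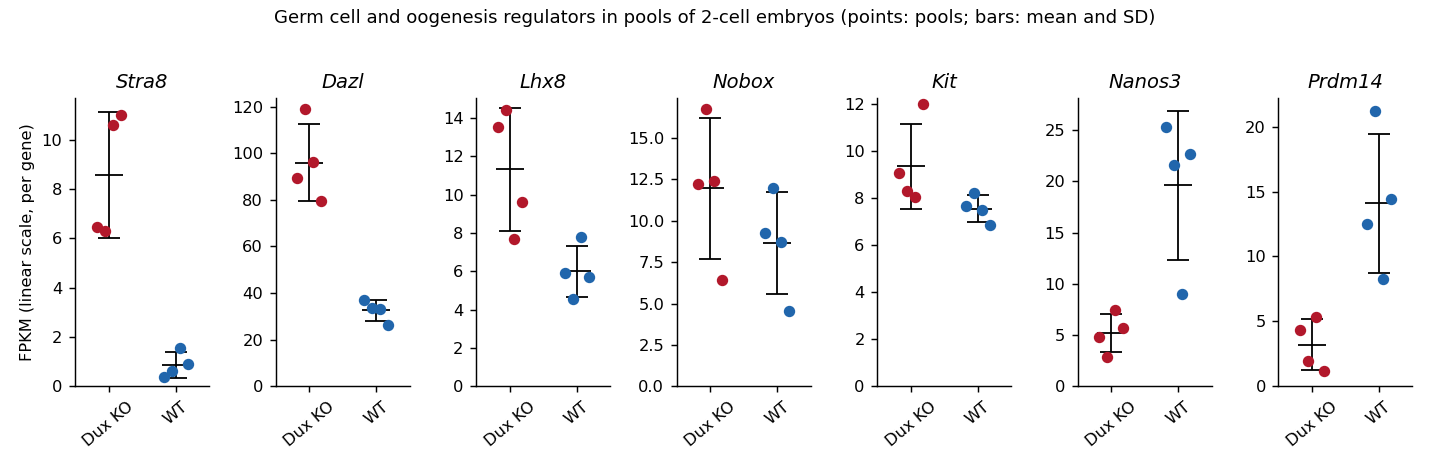
FPKM of each of the 7 measured members in the 4 Dux KO pools and the 4 WT pools, with 1 point per pool and the mean ± SD. The groups are separate for Stra8 and Dazl, higher in Dux KO, and for Nanos3 and Prdm14, lower in Dux KO, and they overlap for Lhx8, Nobox and Kit.

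The oocyte homeobox genes Lhx8 and Nobox, both needed for the survival and growth of oocytes in early follicles, showed smaller differences. Lhx8, a LIM-homeobox gene on chromosome 3 at 154306294 to 154330659, had 13.5, 14.4, 7.70 and 9.61 FPKM in Dux KO replicates 1 to 4, and 5.91, 4.55, 7.80 and 5.70 FPKM in WT replicates 1 to 4. Dux KO replicates 1 and 2 were high, while Dux KO replicate 3 lay just under WT replicate 3. The means were 11.3 ± 3.20 FPKM in Dux KO and 5.99 ± 1.35 FPKM in WT (SD, n = 4 each), a ratio of 1.89 and a log2 difference of 0.80. Nobox, on chromosome 6 at 43303674 to 43309554, had 12.2, 16.8, 12.4 and 6.42 FPKM in Dux KO replicates 1 to 4, and 9.26, 12.0, 8.75 and 4.53 FPKM in WT replicates 1 to 4. Replicate 4 was the lowest pool of each group and replicate 2 the highest, and the groups overlapped. The Nobox means were 12.0 ± 4.25 FPKM in Dux KO and 8.63 ± 3.08 FPKM in WT (SD, n = 4 each), a log2 difference of 0.43.

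Kit, the receptor tyrosine kinase for Kit ligand, acts in migrating primordial germ cells and again in growing oocytes. It lies on chromosome 5 at 75574916 to 75656722. It had 9.07, 8.30, 8.07 and 12.0 FPKM in Dux KO replicates 1 to 4, and 7.67, 8.24, 7.49 and 6.87 FPKM in WT replicates 1 to 4. Of the Dux KO pools, replicate 4 stood above the rest and replicate 3 lay below WT replicate 2. The means were 9.36 ± 1.81 FPKM in Dux KO and 7.57 ± 0.564 FPKM in WT (SD, n = 4 each), a log2 difference of 0.26. Kit was well counted, with 1066 to 1490 reads in Dux KO and 804 to 1020 reads in WT.

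The differences stood in the same direction for all 7 members when any 1 pool was left out. The log2 difference then ranged from 2.24 to 2.54 for Stra8, from 1.42 to 1.61 for Dazl, from 0.68 to 0.95 for Lhx8, from 0.18 to 0.67 for Nobox and from 0.15 to 0.32 for Kit. It ranged from -2.02 to -1.49 for Nanos3 and from -2.15 to -1.64 for Prdm14. A limma fit covered all 12434 genes averaging 0.5 FPKM or more, and a gene was called where its Benjamini-Hochberg adjusted p was under 0.05. The fit called 33.6% of the genes (4182), with 1933 higher (15.5%) and 2249 lower (18.1%) in Dux KO. Under that rule Stra8, Dazl and Lhx8 were higher, Nanos3 and Prdm14 lower, and Kit and Nobox not called. Since the members' levels entered their choice, nothing is read from these counts. The call of Lhx8 was lost without Dux KO replicate 1. Those of Lhx8 and Nanos3 were lost with Dux KO replicates 1 and 2 left out together. Groups that do not overlap were found for 4 of the 7 members and for 33.1% of all tested genes.

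**Figure D2:**
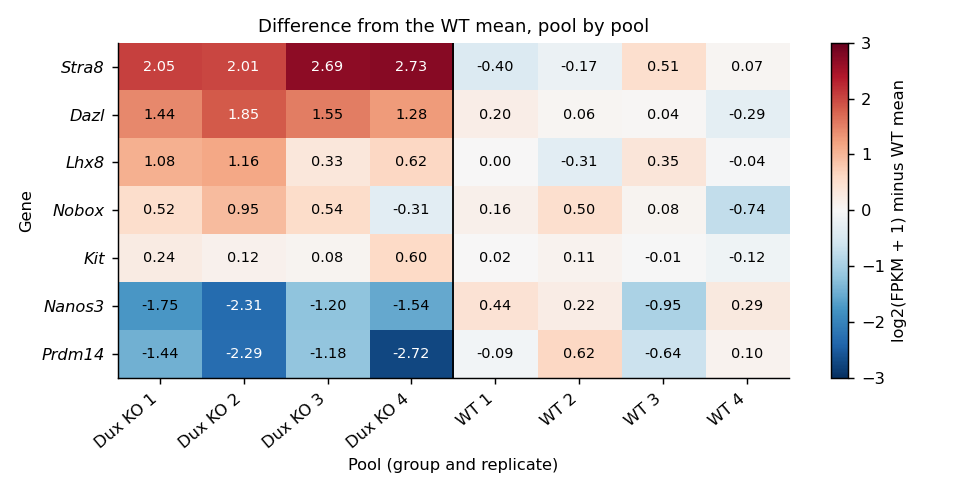
Heat map with the value written in each cell: difference of each pool from the WT mean on the log2(FPKM + 1) scale for the 7 measured members, with Dux KO pools left of WT pools. Stra8 and Dazl lie above the WT pools in all 4 Dux KO pools and Nanos3 and Prdm14 below them, and WT replicate 3 is the lowest WT pool for Nanos3 and Prdm14 and the highest for Stra8.

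The order of the members by level differed between the groups. From high to low, the mean FPKM of Dux KO pools ran Dazl, Nobox, Lhx8, Kit, Stra8, Nanos3 and Prdm14, and only Dazl was separated from its neighbour in that order by ranges that do not overlap. In WT pools it ran Dazl, Nanos3, Prdm14, Nobox, Kit, Lhx8 and Stra8, with ranges that do not overlap between Dazl and Nanos3 and between Lhx8 and Stra8. Among all 13101 genes, the mean FPKM of Stra8 stood at the 64.3 percentile in Dux KO and at the 14.1 percentile in WT. Nanos3 stood at the 52.1 percentile in Dux KO and the 78.7 in WT, and Prdm14 at the 39.8 and the 73.1. Dazl was among abundant transcripts in both, at the 96.1 percentile in Dux KO and the 85.7 in WT.

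Ratios within a pool, which no scaling between pools can move, separated the groups as well. Stra8 stood to Nanos3 at 1.35, 2.17, 1.42 and 1.94 in Dux KO replicates 1 to 4, and at 0.0143, 0.0278, 0.174 and 0.0390 in WT replicates 1 to 4. Every Dux KO pool held more Stra8 than Nanos3 per length, and every WT pool held less. Dazl stood to Prdm14 at 20.8, 61.5, 17.9 and 67.8 in Dux KO and at 2.96, 1.59, 4.02 and 1.81 in WT. The ratio of Nanos3 to Prdm14, the 2 members lower in Dux KO, was 1.11, 1.49, 1.39 and 4.82 in Dux KO and 2.02, 1.02, 1.09 and 1.58 in WT, so the groups overlapped. These ratios rest on the values that chose the members and are a description.

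Some members shared an extreme pool within a group, although Nanos3 and Prdm14 differed in others. The lowest Dux KO pool was replicate 2 for Nanos3 and replicate 4 for Prdm14. The highest WT pool was replicate 1 for Nanos3 and replicate 2 for Prdm14. WT replicate 3 was the lowest WT pool for both Nanos3 and Prdm14 and the highest for Stra8, while Dux KO replicate 3 was the highest Dux KO pool for both Nanos3 and Prdm14. The coefficient of variation was smallest for Dazl in Dux KO, at 17.4%, against 14.2% in WT, and for Kit in WT, where it was 7.46%, against 19.4% in Dux KO. It was largest for Prdm14 in Dux KO, at 61.6%, against 38.1% in WT, and for Stra8 in WT, at 61.1%, against 29.8% in Dux KO. For Stra8 the WT value includes the counting error of 8 to 34 reads. The cumulus and granulosa marker sum was as low in Dux KO replicates 1 and 3 as in WT, with Amhr2 its largest term in these pools. Cyp19a1 of the same list nevertheless stood above every WT pool in both replicates. Stra8, Dazl, Nanos3 and Prdm14 also differed from all WT pools in both, as described above. Whether RNA of other cells contributed to the differences of the members was not tested.

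Genes of the pathways around these members were taken from 7 lists written from textbook knowledge and tested in the fit over all genes, in which 33.6% were called and the median log2 difference was -0.02. Some of their genes had been seen in earlier results of these data. The lists were described by counts and were not tested as sets. They depend on single pools: over all genes, 1260 were called higher and 1426 lower without Dux KO replicate 1, and 1179 higher and 1348 lower without WT replicate 4. With Dux KO replicates 1 and 2 left out together, 353 were called higher and 447 lower.

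Around Stra8, 15 of 26 retinoic acid pathway genes were tested, and 6 were higher, 1 was lower and 8 were not called, with a median log2 difference of 0.48. Aldh1a2, which makes retinoic acid from retinal, averaged 3.01 ± 0.839 FPKM in Dux KO and 1.12 ± 0.205 in WT (SD, n = 4 each, log2 difference 0.91 ± 0.17 SE, limma adjusted p = 0.00501). Rdh11, a retinol and retinal oxidoreductase, averaged 14.0 ± 2.92 FPKM in Dux KO and 6.37 ± 1.36 in WT (log2 difference 1.02, limma adjusted p = 0.00458). Of the cellular retinoic acid binding proteins, Crabp1 averaged 10.1 ± 1.74 FPKM in Dux KO and 5.32 ± 1.02 in WT (log2 difference 0.81, limma adjusted p = 0.00818). Crabp2 averaged 25.2 ± 10.05 FPKM in Dux KO and 12.1 ± 3.08 in WT (log2 difference 0.97, limma adjusted p = 0.0158). In all 4 genes each Dux KO pool lay above each WT pool. The lower gene was Rarg, a retinoic acid receptor, at 1.91 ± 0.561 FPKM in Dux KO and 3.02 ± 0.120 in WT (log2 difference -0.48, limma adjusted p = 0.0434), a call that ended when any pool but Dux KO replicate 4 was left out. With Dux KO replicates 1 and 2 left out, 2 genes were called higher.

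Of 54 genes of meiotic entry and prophase, 43 were tested, and 9 were higher, 9 lower and 25 not called, with a median of 0.07. The structural genes of the synaptonemal complex did not move together. Sycp3, of the lateral element, averaged 321 ± 42.9 FPKM in Dux KO and 150 ± 25.2 in WT (log2 difference 1.10, limma adjusted p = 0.00263). Syce2, of the central element, averaged 174 ± 41.3 FPKM in Dux KO and 81.1 ± 16.3 in WT. Its log2 difference was 1.09 (limma adjusted p = 0.00450). Tex12 was higher by 0.77, and Sycp1, Sycp2 and Syce1 were not called. Syce3, also of the central element, had 6.49 ± 4.36 FPKM in Dux KO and 15.8 ± 5.35 in WT. Its log2 difference was -1.29 (limma adjusted p = 0.0257), and its groups overlapped. Hsf2bp and Mei4, which act in meiotic recombination, were higher by 1.13 and 0.90, and the groups of Mei4 overlapped. Psmc3ip, which helps the meiotic recombinase invade the homologue, averaged 57.7 ± 12.5 FPKM in Dux KO and 138.9 ± 16.6 in WT (log2 difference -1.27, limma adjusted p = 0.00207). Mei1, needed to form meiotic double-strand breaks, and Prdm9, which marks their sites, had log2 differences of -1.23 and -1.01. Calls of Mei4, Syce3 and Prdm9 depended on single pools, that of Prdm9 on Dux KO replicate 1. The count higher was 5 without Dux KO replicate 1 or without Dux KO replicate 2, and the count lower was 4 without Dux KO replicate 1. With both left out, 3 were higher and 3 lower.

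Around Nanos3, Prdm14 and Kit in early germ cells, 25 of 40 primordial germ cell genes were tested, with 3 higher, 4 lower and a median of 0.23. Higher were Smad1, a transducer of the BMP signal that induces primordial germ cells, at 2.25 ± 0.288 FPKM in Dux KO and 0.931 ± 0.106 in WT, Tdrd1, of the piRNA pathway, and Nanos2, the paralogue known from male germ cells. Nanos2 averaged 10.2 ± 3.61 FPKM in Dux KO and 5.47 ± 0.570 in WT (log2 difference 0.74, limma adjusted p = 0.0276), opposite in sign to Nanos3. Lower were Dppa2 and Dppa4, which are paired chromatin proteins of early embryos and germ cells, Tfap2c, and Dppa3, with log2 differences of -0.99, -0.63, -0.69 and -0.61. The calls of Tdrd1, Nanos2, Dppa2 and Dppa4 were lost without WT replicate 4. The count higher was 1 without Dux KO replicate 2 or WT replicate 4 and 6 without Dux KO replicate 4, the count lower was 2 without WT replicate 4, and with Dux KO replicates 1 and 2 left out 1 gene was called in each direction.

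Of 23 partners of PRDM14 and genes of its complexes, 22 were tested, with 3 higher, 3 lower and a median of 0.03. Cbfa2t2, the corepressor that binds PRDM14, averaged 4.90 ± 0.792 FPKM in Dux KO and 8.53 ± 1.75 in WT (log2 difference -0.68, limma adjusted p = 0.0164), a call lost without WT replicate 4. Its relative Runx1t1 had a log2 difference of 0.54, with groups that overlapped. Of the Polycomb subunits, Eed was lower, at 42.7 ± 3.45 FPKM in Dux KO and 62.0 ± 5.33 in WT, and Suz12 was higher, at 132 ± 15.8 FPKM in Dux KO and 96.4 ± 3.38 in WT. The count higher was 1 without Dux KO replicate 2 or WT replicate 3. It was 0 without Dux KO replicate 1, Dux KO replicate 4, WT replicate 1, WT replicate 2 or WT replicate 4, where limma put 2 to 3 genes under an unadjusted p of 0.05.

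Of 28 partners of NANOS3 and DAZL in mRNA control, 26 were tested, with 4 higher, 3 lower and a median of 0.04. The deadenylase subunits did not move together: Cnot7 and Cnot6l had log2 differences of 0.66 and 1.01, and Cnot8 and Cnot10 of -0.51 and -0.43. Btg4, an adaptor of the same complex in oocytes, was higher by 1.34 with groups that overlapped. Ybx2, an RNA-binding protein of germ cells, averaged 7.75 ± 1.69 FPKM in Dux KO and 3.85 ± 1.17 in WT, and Eif4e, the cap-binding translation factor, averaged 124 ± 27.8 FPKM in Dux KO and 202 ± 24.7 in WT. The calls of Btg4, Cnot7, Cnot8 and Cnot10 were lost without WT replicate 4, and that of Cnot10 without any of 7 pools taken singly. Cnot1, Cnot2, Cnot3, Cnot4, Cnot6, Cnot9 and Cnot11 were not called. The count higher was 2 without WT replicate 4, and the count lower was 1 without Dux KO replicate 1 or WT replicate 4.

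Around Nobox, Lhx8, Figla and Sohlh1, 27 of 30 oocyte transcription factors and their known targets were tested, with 8 higher, 3 lower and a median of 0.24. Higher were Tbpl2, the oocyte paralogue of the TATA-binding protein, at 9.09 ± 5.05 FPKM in Dux KO and 2.32 ± 0.800 in WT (log2 difference 1.50, limma adjusted p = 0.00742), Uchl1, a ubiquitin hydrolase abundant in oocytes, by 0.87, Oosp1, an oocyte secreted protein, by 0.97, and Bmp15, an oocyte growth factor, by 1.34. Lower were Zp3, of the zona pellucida, Padi6, of the oocyte cytoplasmic lattices, and Taf4b, with log2 differences of -1.13, -0.75 and -0.46. The known targets of these factors therefore included genes called in each direction. The call of Taf4b was lost without any of 7 pools taken singly, and that of Oosp1 without Dux KO replicate 1, WT replicate 3 or WT replicate 4. The count higher was 4 without Dux KO replicate 1, and 1 with Dux KO replicates 1 and 2 left out.

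Around Kit, 36 of 40 genes of its ligand and signalling chain were tested, with 10 higher, 3 lower and a median of 0.09. Kitl, the ligand itself, averaged 2.601 ± 0.449 FPKM in Dux KO and 2.12 ± 0.633 in WT and was not called (log2 difference 0.22, limma adjusted p = 0.350). Higher were Lyn, a Src-family kinase, at 8.45 ± 2.09 FPKM in Dux KO and 1.56 ± 1.00 in WT (log2 difference 1.94, limma adjusted p = 0.00207), Mapk3, which encodes ERK1, at 41.7 ± 9.88 FPKM in Dux KO and 18.2 ± 3.30 in WT, Socs1, a feedback inhibitor, by 0.78, and Foxo3, a brake on oocyte growth that acts below KIT, by 0.74. Lower were Rps6, Pik3cb and Hras, with log2 differences of -1.06, -0.54 and -0.49. The groups of Pik3cb overlapped. Its call was lost without any of 6 pools taken singly, and that of Hras without any of 5. The count higher was 5 without Dux KO replicate 1, Dux KO replicate 4 or WT replicate 1. It was 6 if Dux KO replicate 2 was left out, and 4 if WT replicate 2 or WT replicate 4 was. The count lower was 1 without Dux KO replicate 2, WT replicate 2, WT replicate 3 or WT replicate 4.

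**Figure D3:**
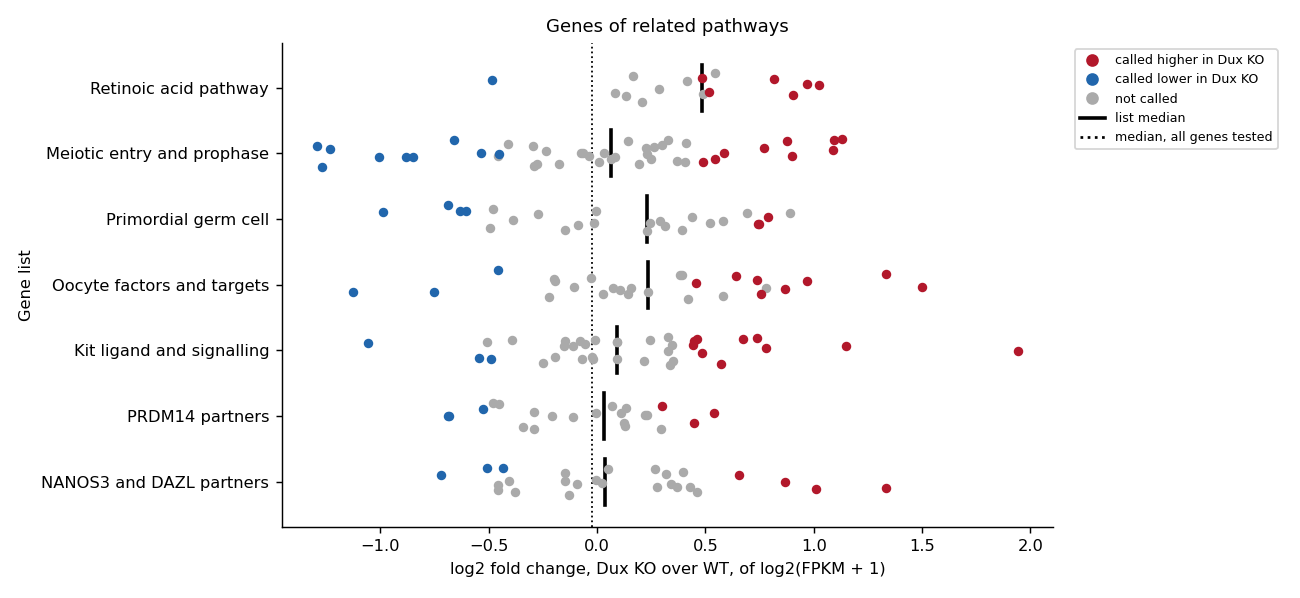
Log2 difference, Dux KO minus WT on the log2(FPKM + 1) scale, of every tested gene of the 7 lists, with 1 point per gene and the median of each list. Called genes lie on both sides of 0 in each list, and the medians run from 0.03 for partners of PRDM14 to 0.48 for retinoic acid pathway genes.

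The nearest 2 genes of the table on each side of the 7 members made 28 neighbours, none of which overlaps a member. Of these, 22 were tested, and 9 were higher and 2 lower (50% called), with a median of 0.31. Over all tested genes 33.6% were called, 15.5% higher and 18.1% lower. The neighbours were not tested as a set. Beside Stra8 none of the 3 tested neighbours was called: Wdr91 had a log2 difference of -0.37 (limma adjusted p = 0.108), Cnot4 of 0.34 (limma adjusted p = 0.154) and Nup205 of -0.14 (limma adjusted p = 0.503). The closest called gene, 1.14 kb from Nanos3 and on the opposite strand, was 4930432K21Rik, which RefSeq lists as Brme1, a gene of meiotic recombination. It averaged 14.8 ± 2.63 FPKM in Dux KO and 21.7 ± 2.46 in WT (log2 difference -0.53, limma adjusted p = 0.0280). With 11.9 kb between them, Ncoa2 differed from Prdm14 in direction, at 9.43 ± 1.28 FPKM in Dux KO and 6.29 ± 0.700 in WT (log2 difference 0.52, limma adjusted p = 0.0273). Tram1, farther from Prdm14, was higher by 1.02.

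Beside Dazl, Rftn1 lies 88.7 kb away and was higher by 0.89, and Plcl2 by 0.52. Beside Lhx8, Slc44a5 lies 34.6 kb away and was higher by 0.59, and Acadm, 362 kb away, by 0.75. Beside Kit, Gm19583, 428 kb away, was higher by 1.86 and Srd5a3 by 0.68. Beside Nobox, Olfr450, 485 kb away, had a log2 difference of -0.98, with groups that overlapped. It averaged 0.307 FPKM in Dux KO and 1.76 in WT. Its call was lost without any of 6 pools taken singly and by the authors' deposited p-values. The calls of 4930432K21Rik and Plcl2 were lost without Dux KO replicate 1 among other pools, and those of Ncoa2 without Dux KO replicate 1, Dux KO replicate 4 or WT replicate 4. The count lower was 0 without Dux KO replicate 1, Dux KO replicate 2, WT replicate 1 or WT replicate 4 and 1 without Dux KO replicate 3, Dux KO replicate 4 or WT replicate 2, where limma put 2 to 4 neighbours under an unadjusted p of 0.05.

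**Figure D4:**
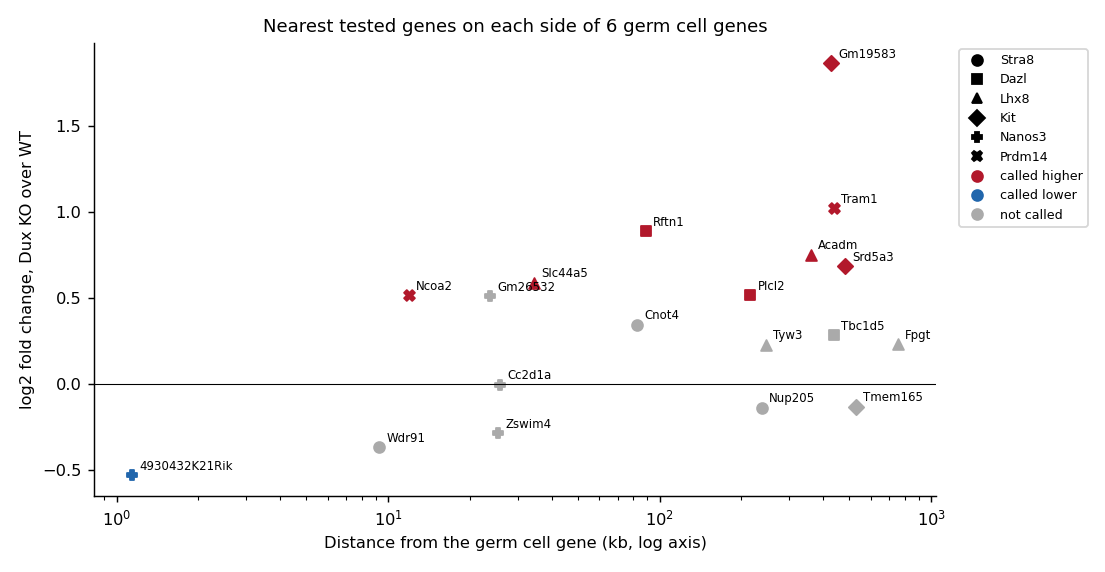
Log2 difference, Dux KO minus WT on the log2(FPKM + 1) scale, of the 19 tested neighbours of 6 members, Nobox not being shown, against their distance from the member in kb (log axis), with the shape of a point giving the member and its colour the call. The neighbours of Stra8 were not called, and 4930432K21Rik is the only called neighbour of Nanos3.

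Genes with a similar profile over the 8 pools were sought for each member with a log2 difference of at least 1 in size. Likeness was the root mean square difference of log2(FPKM + 1) values measured from the WT mean. This likeness includes the difference between the groups and says nothing of shared control. Of 9853 candidates, Ripk3 was most like Stra8, with a root mean square difference of 0.258, followed by Reep1 at 0.497 and Pla2g1b at 0.519. Ripk3 had 10.5, 6.66, 8.74 and 12.5 FPKM in Dux KO replicates 1 to 4, and 0.781, 0.848, 2.39 and 0.895 FPKM in WT replicates 1 to 4, with WT replicate 3 the highest WT pool as for Stra8. Cyp2b23, Lef1 and Tgfb2 were most like Dazl, at 0.105, 0.116 and 0.139. This scale compresses low values. Cyp2b23 averaged 2.93 FPKM in Dux KO and 0.475 in WT, a ratio of 6.17 against 2.95 for Dazl.

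Ercc1, Prss45 and Slc27a5 were most like Nanos3, at 0.207, 0.249 and 0.314. Ercc1 had 10.7, 8.03, 18.7 and 12.1 FPKM in Dux KO replicates 1 to 4, and 43.4, 52.3, 27.1 and 48.6 FPKM in WT replicates 1 to 4, with replicate 3 the highest Dux KO pool and the lowest WT pool, as for Nanos3. Pip5k1b, Kyat3 and C1s2 were most like Prdm14, at 0.330, 0.374 and 0.377. On the log2(FPKM + 1) scale, the likeness was closer for the 3 genes named beside Dazl than for the first gene named beside any of the other 3 members.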

How the data were processed

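RNA-seq of 8 pools was grouped by the sample labels. The gene table holds FPKM, deposited by the authors, with a mean signal (scaled counts), a log2 fold change and adjusted p-values, also the authors' deposited values. Trimmomatic 0.32, STAR 2.6.1a, SAMtools 1.7 and the build GRCm38 (mm10) were used, per the submitters' processing notes. The sources used here do not name the counter, annotation or strand setting, so reads of overlapping antisense genes cannot be told apart. The table holds no gene with a mean scaled count under 25.0, so low genes had been left out before. A table of repeats was not used here.

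Reads were recovered from the FPKM steps and came out whole for 100% of values (within 0.05). Coordinates come from GENCODE M21 (13100 identifiers found). limma 3.58.1 in R 4.3.3, with variance trend and robust moderation, was fitted to log2(FPKM + 1) over the 12434 genes averaging 0.5 FPKM or more. Calls use a Benjamini-Hochberg adjusted p under 0.05, two-sided. No covariate entered. On simulated data with 12403 genes in this comparison, 24.5% of 98 genes changed by a log2 fold of 1 and 99.0% of 96 changed by 2 were called. The simulation changed far fewer genes than were called in the data and gave all genes the same dispersion. These shares therefore need not hold for the data. Pools of a group differed beyond sampling noise in every pair (chi-square per degree of freedom 13.8 to 117).

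The members, the lists and the marker genes were chosen with earlier results of these data known. The genes named are all members, up to 4 called genes per list and direction that average 1 FPKM or more in either group, all called neighbours, and the 3 closest profiles. Kitl, Tex12, Sycp1, Sycp2, Syce1, the neighbours of Stra8 and the markers of other cells were named outside that rule. A called neighbour of a member is counted but not reported here. Alternatives were a pseudocount of 0.1, no filter or a mean of at least 5 FPKM, scaling by median of ratios, a block for the replicate number, limma with plain moderation, the deposited p-values, and leaving out each pool or Dux KO replicates 1 and 2 or 3 and 4.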

Additional observations from a re-analysis of the deposited data

Results flagged for a closer look

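In 9 of 150 groups of 4 pools, the highest or lowest pool stood apart from the others by Dixon's gap over range, where chance flags about 1 in 20 groups. None of the 9 groups was of a member.

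Of the genes related to the members, Crabp2 had 40.2 FPKM in Dux KO replicate 2, against 18.6 to 21.3 in the other Dux KO pools, the pool that also had the highest sum of cumulus and granulosa markers. Dppa2 had 24.8 FPKM in the same pool, against 54.4 to 57.3. Cnot6l had 25.6 FPKM in Dux KO replicate 3, against 38.5 to 39.5 in the other Dux KO pools, and 13.0 FPKM in WT replicate 4, against 18.2 to 18.5 in the other WT pools. Oosp1 had 728 FPKM in WT replicate 4, against 1176 to 1264.

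Of the genes with a profile like a member's, Kyat3 had 7.46 FPKM in Dux KO replicate 3, against 2.07 to 2.89 in the other Dux KO pools. Ripk3 had 2.39 FPKM in WT replicate 3, against 0.781 to 0.895, and Prss45 had 3.90 FPKM in that pool, against 15.0 to 15.5. Of the neighbours, Rftn1 had 0.488 FPKM in WT replicate 1, against 0.144 to 0.184 in the other WT pools. What sets these pools apart was not tested.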

How the results depend on the processing

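No direction of a called member or a named gene was reversed under the 17 alternatives. The larger side of a list's counts did change in places. Oocyte factors went from 8 higher and 3 lower to 1 and 2 with Dux KO replicates 1 and 2 left out together. Primordial germ cell genes went from 3 higher and 4 lower to 6 and 5 without Dux KO replicate 4. Of 68 named genes, 28 kept their call under every alternative in which they were tested. Of 1138 values 979 kept the call and 159 lost it. Not every gene passed the filter on low values in all 17 alternatives, and Stra8 did not reach a mean of 5 FPKM. The cause of the changes was not tested.

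With a mean of at least 5 FPKM, which leaves fewer genes and moves the median log2 difference of all genes to -0.18, 1032 genes in all were called higher, and 1 primordial germ cell gene, 5 meiotic genes, 1 partner of PRDM14 and 4 neighbours. Lower were 0 retinoic acid genes (0 at an unadjusted p under 0.05 in limma) and 1 neighbour. With the replicate block, 5 primordial germ cell genes and 1 partner of PRDM14 were called higher, and 4 members in place of 3, Nobox being added. By the authors' deposited p-values, 5 primordial germ cell genes were higher and 5 partners of PRDM14 and 1 neighbour lower.

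With Dux KO replicates 1 and 2 left out together, 353 genes in all were called higher and 447 lower. Of members 1 was lower (Prdm14), of primordial germ cell genes 1 was higher and 1 lower, of meiotic genes 3 and 3, of retinoic acid genes 2 and 0, of Kit signalling genes 2 and 0, and of neighbours 4 and 0. At an unadjusted p under 0.05 in limma, the lower counts of the last 3 were 0, 2 and 0. Of oocyte factors 1 was higher. Of partners of PRDM14 and of NANOS3 and DAZL 0 were called either way, with 1 and 3 and with 5 and 2 at an unadjusted p under 0.05 in limma. With Dux KO replicates 3 and 4 left out, 6 primordial germ cell genes and 5 Kit signalling genes were higher, 0 partners of PRDM14 were higher (2 unadjusted), and 1 neighbour was lower.

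With any 1 pool left out, all genes called higher ranged from 1179 to 1912 and lower from 1348 to 2133. Members ranged from 2 to 3 higher and stayed at 2 lower, primordial germ cell genes from 1 to 6 higher and 2 to 5 lower, meiotic genes from 5 to 9 and 4 to 9, and retinoic acid genes from 4 to 7 and 0 to 1. Oocyte factors ranged from 4 to 11 higher and 2 to 3 lower, Kit signalling genes from 4 to 9 and 1 to 3, partners of PRDM14 from 0 to 2 and 2 to 4, partners of NANOS3 and DAZL from 2 to 5 and 1 to 3, and neighbours from 6 to 8 and 0 to 2.

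Replicate numbers are not stated to pair the pools. Deviations of same-numbered pools correlated at -0.115, 0.328, -0.0554 and 0.302, and not every pool correlated best with its own number. Depth limits Stra8 most, with 8 to 34 reads in WT.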
